A study of Mus musculus with 7 samples.

Results

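The complement genes followed here were 8 of the 55417 rows of the count table, chosen by symbol: the components C3, Cfb, Cfp, C1qa, C1qb and C1qc and the receptor genes C3ar1 and C5ar1. RNA sequencing had been done on RAW264.7 cells, a mouse macrophage-like line, in 7 libraries. The groups were cells with the Dpep2 hairpin shDpep2.968 (n = 2), cells with the Dpep2 hairpin shDpep2.759 (n = 2) and cells with the control hairpin shNT (n = 3), so every group carried a short hairpin. The labels give no further treatment and no time, and they do not say whether replicates were separate cultures or whether each hairpin line was a pool or a clone. The p-values therefore cover only how far these libraries varied, and that variation may be technical. The study asked what changes when Dpep2, which encodes a membrane-bound dipeptidase, is knocked down.

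Complement is a set of plasma and cell-surface proteins that tag, lyse and clear microbes and debris. Most circulating components come from the liver, and macrophages make several of them locally. C1q, built from chains encoded by C1qa, C1qb and C1qc, starts the classical pathway. The alternative pathway runs through C3, the protease factor B (Cfb) and properdin (Cfp), which stabilises the convertase. Fragments released from C3 and from the component encoded by Hc act on the receptors encoded by C3ar1 and C5ar1.

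C3ar1 and Cfb were higher in all 4 Dpep2 hairpin libraries than in all 3 shNT libraries, an arrangement found in 9.03% of tested genes. C3ar1 rose 1.76-fold and Cfb 1.97-fold with both hairpins averaged against shNT, while C5ar1, C3 and Cfp did not pass the test in that comparison. C3 and Cfp lay below shNT with shDpep2.968 and above it with shDpep2.759. The C1q genes were counted at 0 to 14 per library. Levels are CPM, a gene's count scaled to the library's TMM-adjusted size, and the libraries held 16548648 to 18401060 counts each. In these bulk samples fewer expressing cells and less RNA per cell cannot be told apart.

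Stretches of sequence just upstream of the start sites of C3, Cfp and C3ar1 are shown because these genes carry the patterns described below, C3 and Cfp with opposite positions in the hairpin groups and C3ar1 with the same rise in both. They are from RefSeq, build GRCm38.p6, minus strand, written 5′ to 3′ along the gene and ending next to the start, with 4 bases of an annotated exon left off C3ar1. Capitals mark every match, on either strand, to 6 short motifs: GGGNNTNCC and GGGNNTTCC (a looser and a stricter NF-kB-like form, the second contained in the first), GAAANNGAA (ISRE-like), TTCNNNGAA (GAS-like), GAGGAAGT (PU.1-like) and TTNNGCAA (C/EBP-like).
C3 chr17:57228137-57228386: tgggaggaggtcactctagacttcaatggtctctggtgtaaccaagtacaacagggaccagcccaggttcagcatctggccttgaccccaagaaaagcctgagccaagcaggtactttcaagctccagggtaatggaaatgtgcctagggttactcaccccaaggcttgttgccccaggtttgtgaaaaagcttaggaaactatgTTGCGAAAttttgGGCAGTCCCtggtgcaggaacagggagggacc
Cfp chrX:20931556-20931805: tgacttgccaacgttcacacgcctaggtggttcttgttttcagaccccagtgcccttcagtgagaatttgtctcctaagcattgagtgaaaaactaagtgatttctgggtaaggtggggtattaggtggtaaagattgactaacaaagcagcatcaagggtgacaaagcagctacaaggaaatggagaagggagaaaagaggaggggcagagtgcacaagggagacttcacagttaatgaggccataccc
C3ar1 chr6:122856162-122856407: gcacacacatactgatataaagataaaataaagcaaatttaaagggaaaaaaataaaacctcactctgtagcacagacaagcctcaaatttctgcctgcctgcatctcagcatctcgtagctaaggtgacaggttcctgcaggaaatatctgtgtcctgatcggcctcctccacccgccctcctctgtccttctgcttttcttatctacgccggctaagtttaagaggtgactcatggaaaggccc
The table of promoters held 6 of the 8 genes. The looser NF-kB-like form matched in 1 of those 6 windows of 250 bases, that of C3 at 32 to 24 bases before the start, against 14.0% of all 32851 windows of that length. The stricter form matched in 0 of the 6, against 4.98% of all windows. The C3 window also held a C/EBP-like match 45 to 38 bases before the start, which did not overlap the other, and 9.56% of all windows held that motif. No listed motif was found in the Cfp and C3ar1 windows. Elsewhere, C5ar1 held an ISRE-like match (7.13% of all windows) and C1qc a PU.1-like match (2.44%), while GAS-like letters were in 0 of the 6 (7.02%). The NF-kB-like and ISRE-like letters were shortened after matches in these promoters had been seen, so their matches cannot be weighed against the shares of all windows. A match is a description of letters and says nothing about binding.

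For Dpep2 itself the shDpep2.968 libraries gave 22.4 and 17.9 CPM, the shDpep2.759 libraries 24.9 and 19.5 CPM, and the shNT libraries 55.6, 60.3 and 52.1 CPM, so the labels and the target gene matched in all 7 libraries. Macrophage markers were abundant (7 of 8 genes over 20 counts). Their summed CPM ran from 12874 to 12978 in shDpep2.968 libraries, 14782 to 18069 in shDpep2.759 libraries and 12074 to 13525 in shNT libraries. Most of each sum was Lyz2, which averaged 9488, 12450 and 9196 CPM in that order, so the sums say little about the other markers. In the same order Adgre1 averaged 150, 259 and 133 CPM, Fcgr1 372, 480 and 281, and Itgam 871, 1283 and 1217. Csf1r averaged 1325, 1191 and 1138 CPM, Cd68 462, 482 and 433, and Ptprc 258, 280 and 259. The macrophage gene Mertk did not pass 6 counts in any library. Of 5 hepatocyte markers 4 were at 0 throughout, Alb among them, and the highest count of the fifth was 2. Fibroblast markers, mostly Dcn, summed to 0.979 to 1.45 CPM (shDpep2.968), 2.23 to 2.36 CPM (shDpep2.759) and 0.483 to 1.23 CPM (shNT). Their part in the results was not tested. T cell, neutrophil and epithelial markers had at most 4 counts in a library, and B cell markers at most 58.

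Factor B, the protease of the alternative pathway convertase, rose with shDpep2.759 and with both hairpins averaged. The shDpep2.968 libraries had 38.7 and 42.5 CPM of Cfb, the shDpep2.759 libraries 96.3 and 57.0 CPM and the shNT libraries 31.8, 24.6 and 28.5 CPM. Both hairpin groups lay above all shNT libraries, and shDpep2.759 replicate 1 lay far above its partner. With both hairpins averaged, Cfb had a log2 fold change of 0.98 (SE 0.17, 95% interval 0.61 to 1.35, edgeR quasi-likelihood adjusted p = 0.00540). With shDpep2.759 alone it rose 2.71-fold (95% interval 2.02 to 3.64, edgeR adjusted p = 0.00179). With shDpep2.968 alone the estimate was 1.44-fold (95% interval 1.06 to 1.94), which did not pass (edgeR adjusted p = 0.146). It passed in 4 of 17 alternatives, with no low-count filter (adjusted p = 0.0127), with the compared groups only (0.0248) and without shDpep2.759 replicate 1 (0.0260) or 2 (0.0251), and leaving out replicate 2 of shDpep2.968 gave the highest adjusted p, 0.546. Without shDpep2.759 replicate 1 the averaged log2 fold change was 0.76 and still passed. Fitting all hairpin libraries as 1 group ended the averaged call (edgeR adjusted p = 0.118, range over 17 alternatives 2.95e-12 to 0.118). The annotated gene Gm20547 overlaps Cfb on the same strand, and it had 0 to 7 counts per library.

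C3, the central component that both pathways cleave, did not pass the averaged test and lay on opposite sides of shNT in the hairpin groups. Its CPM were 15.9 and 16.5 in shDpep2.968 libraries, 23.7 and 27.2 in shDpep2.759 libraries and 19.5, 19.8 and 21.2 in shNT libraries. The 3 groups did not overlap, with shDpep2.968 lowest and shDpep2.759 highest. Averaged over both hairpins the log2 fold change was 0.01 (SE 0.11, 95% interval -0.24 to 0.26, edgeR adjusted p = 0.973). Alone, shDpep2.968 gave -0.32 (edgeR adjusted p = 0.189) and shDpep2.759 gave 0.34 (edgeR adjusted p = 0.186).

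Properdin followed the same order. Cells with shDpep2.968 had 348 and 327 CPM of Cfp, those with shDpep2.759 565 and 440 CPM, and control cells 375, 413 and 428 CPM. Again shDpep2.968 lay below and shDpep2.759 above every shNT library, although shDpep2.759 replicate 2 exceeded the highest shNT library by little. The averaged log2 fold change was 0.02 (95% interval -0.23 to 0.27, edgeR adjusted p = 0.929). This pattern, shDpep2.968 below and shDpep2.759 above all shNT libraries, was found in 1.07% of the 13329 tested genes.

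**Figure D1:**
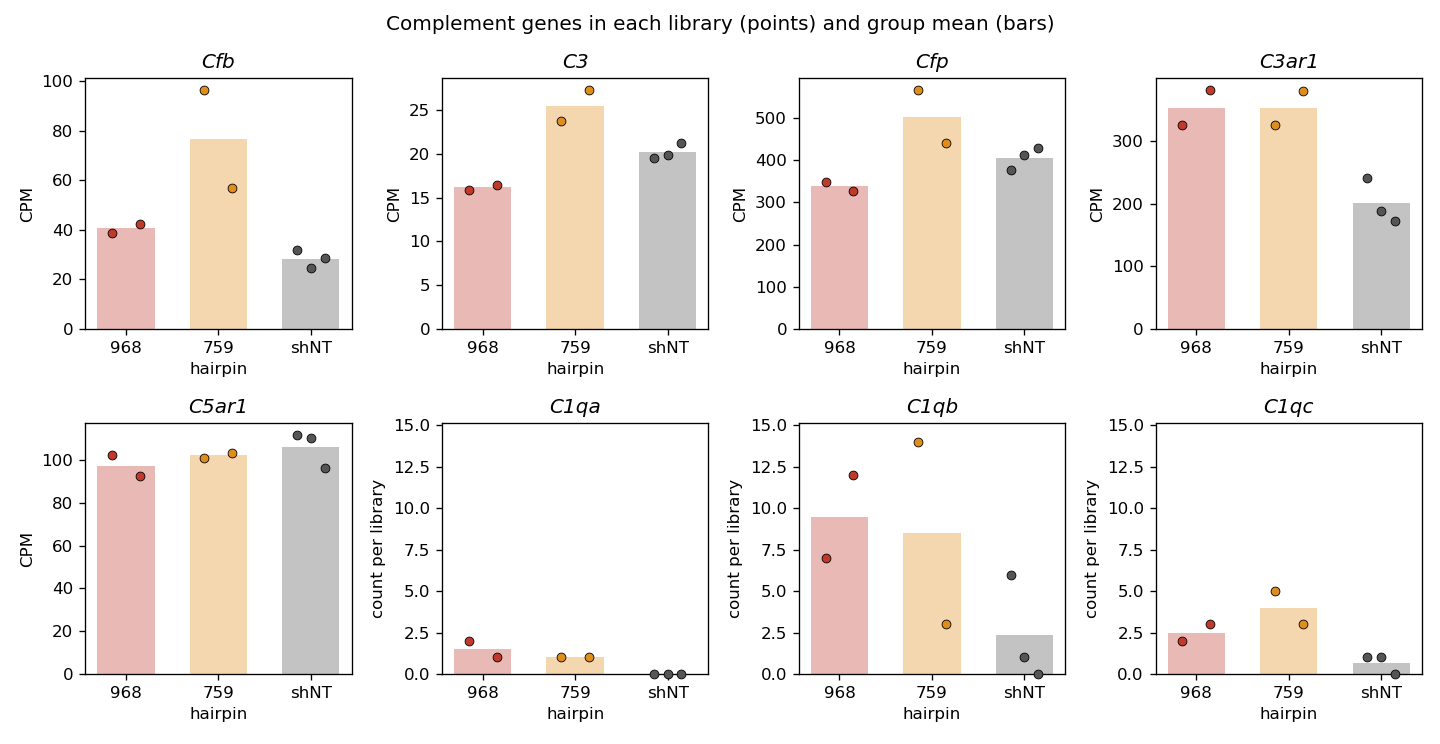
Level of each of the 8 genes in every library (points) with the group mean (bars), for shDpep2.968, shDpep2.759 and shNT from left to right; the vertical axis is CPM, or the raw count for the C1q genes. Cfb and C3ar1 are above shNT in all 4 hairpin libraries, and the C1q genes do not exceed 14 counts.

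The receptor gene for the C3 fragment rose with each hairpin. C3ar1 reached 326 and 381 CPM under shDpep2.968 and 325 and 380 CPM under shDpep2.759, while shNT libraries had 241, 189 and 172 CPM. The hairpin groups coincided and lay above every shNT library. The averaged log2 fold change was 0.81 (SE 0.13, 95% interval 0.53 to 1.10, edgeR adjusted p = 0.00308) and passed in all 17 alternatives. Alone, shDpep2.968 gave 1.76-fold (95% interval 1.40 to 2.22, edgeR adjusted p = 0.0106) and shDpep2.759 also 1.76-fold (95% interval 1.39 to 2.21, edgeR adjusted p = 0.00908). The difference between the hairpins was 0.00 on the log2 scale with a 95% interval of -0.37 to 0.37. The call for shDpep2.968 alone was lost without its replicate 2 (edgeR adjusted p = 0.162). Both single-hairpin calls were also lost without shNT replicate 2 (adjusted p = 0.0575 for shDpep2.968 and 0.0557 for shDpep2.759) or shNT replicate 3 (0.0730 and 0.0762).

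C5ar1, the receptor for the other anaphylatoxin, did not pass in any of the 4 comparisons. C5ar1 levels were 102 and 92.4 CPM (shDpep2.968), 101 and 103 CPM (shDpep2.759) and 111, 110 and 96.4 CPM (shNT). The groups overlapped. The averaged log2 fold change was -0.09 with a 95% interval of -0.30 to 0.12 (edgeR adjusted p = 0.641).

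The C1q genes were close to undetected. C1qa had 2 and 1 counts (shDpep2.968), 1 and 1 counts (shDpep2.759) and 0 in each shNT library. A count of 0 over the 3 shNT libraries allows up to 0.0569 CPM, and this limit covers counting error only. C1qc had 2 and 3 counts (shDpep2.968), 5 and 3 (shDpep2.759) and 1, 1 and 0 (shNT). C1qb had 7 and 12 counts (shDpep2.968), 14 and 3 (shDpep2.759) and 6, 1 and 0 (shNT). Summed over the 4 hairpin libraries and the 3 shNT libraries, C1qa had 5 and 0 counts, C1qb 36 and 7, and C1qc 13 and 2.

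C1qb was the only C1q gene kept by the low-count filter, and it was kept through 2 hairpin libraries alone, shDpep2.968 replicate 2 and shDpep2.759 replicate 1. Its averaged estimate was 3.85-fold with a 95% interval of 1.07 to 13.9, and it did not pass (edgeR adjusted p = 0.196). It passed in 1 of 16 alternatives, without shNT replicate 1 (adjusted p = 0.0493, range over the alternatives 0.0493 to 0.526). With no low-count filter C1qa and C1qc did not pass either (edgeR adjusted p = 0.460 and 0.436).

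Of the 8 genes 6 were tested, and 2 rose and 0 fell with both hairpins averaged, beside 3.44% of all tested genes called higher and 4.15% called lower. The 2 were Cfb and C3ar1. At an unadjusted p under 0.05 by edgeR C1qb was also higher, a gene kept by the filter only through hairpin libraries, and 0 were lower, beside 10.4% of all tested genes higher and 12.5% lower. DESeq2 called 2 higher and 0 lower, beside 4.20% and 4.55% of the genes it gave an adjusted p. With limma-voom 2 were higher and 0 lower, beside 2.99% and 3.50%. With shDpep2.968 alone 1 of 6 rose (C3ar1) and 0 fell, beside 2.29% of all tested genes called higher and 2.96% lower. With shDpep2.759 alone 2 rose (Cfb and C3ar1) and 0 fell, beside 2.72% higher and 2.00% lower. The comparisons share the shNT libraries. All 4 hairpin libraries lay above all shNT libraries in 9.03% of tested genes.

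**Figure D2:**
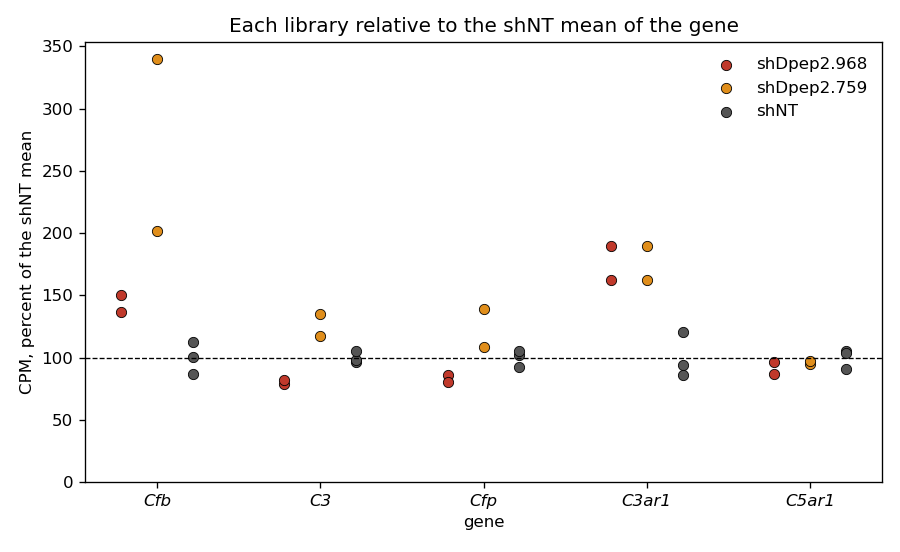
CPM of 5 complement genes in each library as a percent of that gene's shNT mean (dashed line at 100), with shDpep2.968, shDpep2.759 and shNT from left to right within a gene. C3ar1 lies at 162 to 190 percent in the 4 hairpin libraries, and C3 and Cfp lie below 100 with shDpep2.968 and above it with shDpep2.759.

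Set against each other, the hairpins differed in the same direction for all 3 alternative pathway genes, none of which passed the test. The log2 fold change of shDpep2.968 over shDpep2.759 was -0.92 for Cfb (95% interval -1.39 to -0.44), -0.65 for C3 (-0.98 to -0.33) and -0.57 for Cfp (-0.90 to -0.25). Their edgeR adjusted p-values were 0.0791, 0.0652 and 0.102. Both shDpep2.968 libraries lay below both shDpep2.759 libraries for each of the 3, as they did for 22.5% of all tested genes. By edgeR 0 of the 6 tested genes passed this comparison, beside 0.840% of all tested genes. At an unadjusted p under 0.05 the number was 3, all lower, beside 8.29% of all tested genes lower. DESeq2 called those 3 lower (adjusted p = 0.00389 for Cfb, 0.0277 for C3 and 0.0124 for Cfp), beside 1.88% of the genes it gave an adjusted p. With limma-voom 0 were called, beside 0.300% of all genes lower. Without shDpep2.759 replicate 2 Cfb and Cfp passed by edgeR (adjusted p = 0.000439 and 0.00899), and without its replicate 1 none of the 3 did (0.446 for Cfb, 0.114 for C3 and 0.529 for Cfp). Over the 17 alternatives the adjusted p ran from 5.03e-06 to 0.453 for Cfb, from 0.0154 to 0.367 for C3 and from 0.00899 to 0.545 for Cfp.

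Levels of the tested genes among the 8 were compared as CPM per kilobase of the longest protein-coding transcript in GENCODE M21, which may not be the transcript these cells use. Within these 6 genes and with shNT, Cfp was highest at 248 ± 16 (SD, n = 3), followed by C3ar1 at 46.6 ± 8.4 and C5ar1 at 41.8 ± 3.3. Cfb was at 10.3 ± 1.3 and C3 at 3.93 ± 0.17. C1qb was lowest of the 6, at 0.128 ± 0.18. With shDpep2.968, Cfp was at 206 ± 9 and C3ar1 at 82.0 ± 9.1 (SD, n = 2). In shDpep2.759 libraries Cfp was at 307 ± 54 and C3ar1 at 81.8 ± 9.0. The ranges of C3ar1 and C5ar1 overlapped across the shNT libraries and not with either hairpin, although C3ar1 was above C5ar1 within every library. Their ratio per length was 1.88 and 2.43 (shDpep2.968), 1.90 and 2.17 (shDpep2.759) and 1.28, 1.01 and 1.05 (shNT). The ratio of Cfb to C3 was 4.55 and 4.82 (shDpep2.968), 7.57 and 3.91 (shDpep2.759) and 3.05, 2.32 and 2.51 (shNT), again without overlap between hairpin and shNT libraries. C3ar1 and Cfb each lay above all shNT libraries already, so these ratios are not separate results. The share of gene pairs with such ratios was not counted. The ratio of Cfp to C3 did overlap, at 68.8 and 62.3 (shDpep2.968), 74.7 and 50.8 (shDpep2.759) and 60.4, 65.4 and 63.4 (shNT).

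**Figure D3:**
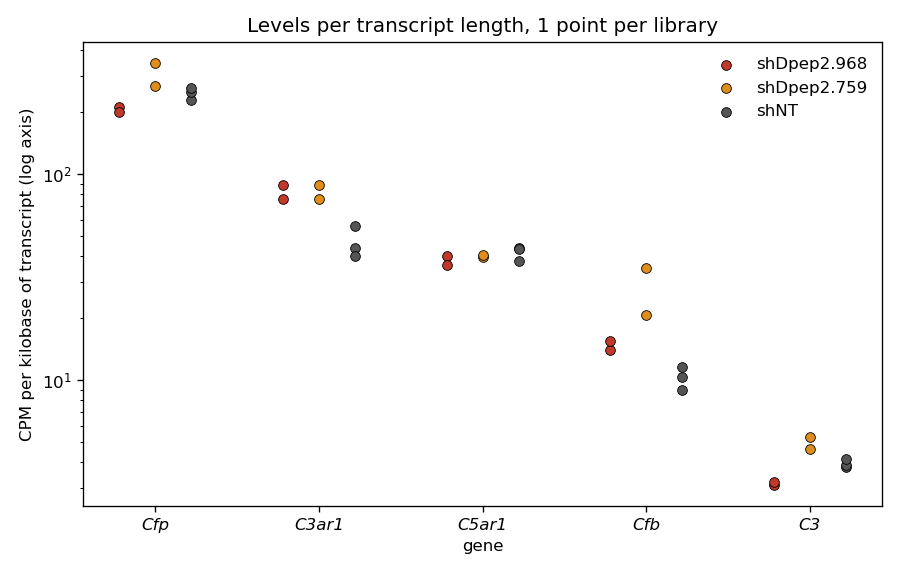
CPM per kilobase of transcript (log axis) of 5 complement genes, 1 point per library, with shDpep2.968, shDpep2.759 and shNT from left to right within a gene. The ranges of C3ar1 and C5ar1 overlap across the shNT libraries and not with either hairpin. Within each library C3ar1 lies above C5ar1, also with shNT, where the ratios are 1.28, 1.01 and 1.05.

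The wider complement list held 61 genes of the classical, alternative, lectin and terminal pathways, receptors and regulators, of which 26 were tested and 14 had 0 counts in all libraries. With both hairpins averaged 4 rose, 0 fell and 22 did not pass, beside the 3.44% higher and 4.15% lower of all tested genes, and the median log2 fold change was 0.07 against 0.00 over all tested genes. DESeq2 called 6 higher and 0 lower, beside 4.20% and 4.55% of the genes it gave an adjusted p. With limma-voom 4 were higher and 0 lower, beside 2.99% and 3.50%. At an unadjusted p under 0.05 edgeR had 7 higher and 1 lower, beside 10.4% and 12.5% of all tested genes. The 7 include C1qb, which was kept by the filter only through hairpin libraries. The 4 called higher by edgeR after adjustment were Cfb, C3ar1, Itgax and Calr. Each of them rests on the same shNT libraries.

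Among receptors 3 of 10 tested genes rose, C3ar1 included, and 0 fell, beside 3.44% of all tested genes higher and 4.15% lower. The averaged log2 fold change was positive for 5 of the 10 and negative for 5. Itgax encodes the alpha chain of complement receptor CR4 and had 8.27 and 7.66 CPM (shDpep2.968), 2.30 and 4.57 CPM (shDpep2.759) and 2.60, 1.92 and 1.79 CPM (shNT). It rose with shDpep2.968 (3.80-fold, 95% interval 2.47 to 5.84, edgeR adjusted p = 0.00298) and not with shDpep2.759 (1.64-fold, adjusted p = 0.218). The difference between the hairpins did not pass (adjusted p = 0.0928). Its averaged call was lost without shNT replicate 2 (adjusted p = 0.0525) or 3 (0.0685), and with all hairpin libraries as 1 group (0.0788).

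Calr encodes calreticulin, a chaperone that also binds C1q at the cell surface. It had 1850 and 1879 CPM (shDpep2.968), 1913 and 1864 CPM (shDpep2.759) and 1581, 1401 and 1357 CPM (shNT). The hairpin libraries lay close together. All 4 were above every shNT library, an arrangement found in 9.03% of all tested genes. The averaged log2 fold change of 0.38 (edgeR adjusted p = 0.0493) passed in 8 of 17 alternatives (range 0.00402 to 0.467). It was lost without shDpep2.968 replicate 1 or 2 or any 1 of the shNT libraries, and with no low-count filter (adjusted p = 0.0508). Itgam, which encodes the alpha chain of CR3, had log2 fold changes of -0.48 with shDpep2.968 and 0.08 with shDpep2.759 (edgeR adjusted p = 0.0581 and 0.812). Itgb2, also on the receptor list, had -0.41 and 0.07 in the same order (edgeR adjusted p = 0.0893 and 0.827).

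In the classical pathway 0 of 5 tested genes passed. C1qb alone had an unadjusted edgeR p under 0.05 in the averaged comparison, beside 10.4% of all tested genes higher and 12.5% lower. C1qb was kept by the filter only through hairpin libraries, so its p cannot be weighed against those shares. C1ra, a protease of the C1 complex, averaged 15.0 ± 2.7 CPM (shDpep2.968), 16.4 ± 3.1 CPM (shDpep2.759, SD, n = 2 each) and 16.1 ± 3.4 CPM in shNT libraries (SD, n = 3). C4b averaged 0.837, 1.09 and 0.906 CPM in that order, and its reads could be shared with its paralog C4a. C2, next to Cfb in the annotation, was not tested. Both DESeq2 and limma-voom called 0 of these genes.

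In the lectin pathway 0 of 3 tested genes passed by edgeR or limma-voom. At an unadjusted edgeR p under 0.05 in the averaged comparison 1 was higher and 1 lower, beside 10.4% and 12.5% of all tested genes. DESeq2 called Colec12 higher there, beside 4.20% of the genes it gave an adjusted p. Colec12, a scavenger receptor with a collagen stem and a lectin domain, had 276 and 296 CPM (shDpep2.968), 268 and 303 CPM (shDpep2.759) and 258, 200 and 180 CPM (shNT). All 4 hairpin libraries lay above the shNT libraries, as they did for 9.03% of all tested genes. The averaged log2 fold change of 0.43 (95% interval 0.15 to 0.71) missed the threshold (edgeR adjusted p = 0.0621, 0.0183 by DESeq2, range over 17 alternatives 0.0112 to 0.471). The ficolin gene Fcna averaged 4.88 ± 0.46 CPM (shDpep2.968), 5.61 ± 2.14 CPM (shDpep2.759) and 7.51 ± 1.17 CPM with shNT (averaged edgeR adjusted p = 0.147).

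Of 19 regulators 5 were tested and 0 passed, with 0 also by DESeq2, limma-voom and at an unadjusted p under 0.05. Cr1l, the mouse membrane regulator Crry, averaged 76.2 ± 13.3 CPM (shDpep2.968), 68.8 ± 6.6 CPM (shDpep2.759) and 68.1 ± 8.9 CPM with shNT. Clusterin (Clu), which binds the terminal complex, averaged 30.7 ± 0.5, 30.1 ± 12.1 and 30.6 ± 3.4 CPM in the same order. None of the 7 terminal pathway genes was tested.

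**Figure D4:**
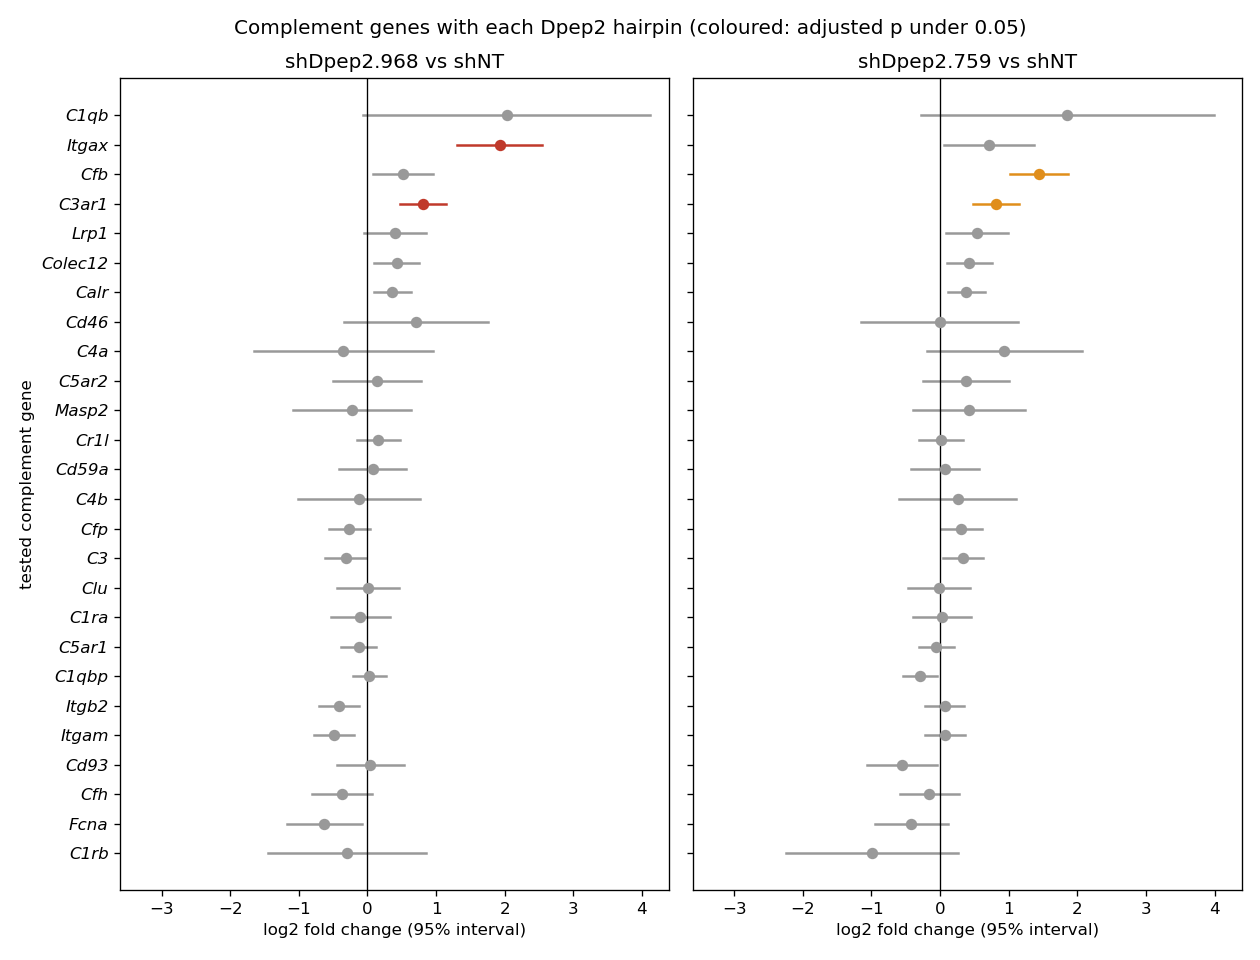
Log2 fold change with its 95% interval for the 26 tested complement genes, shDpep2.968 against shNT on the left and shDpep2.759 against shNT on the right, ordered by the averaged change, with genes at an adjusted p under 0.05 in colour. C3ar1 is coloured in both panels, Itgax on the left and Cfb on the right.

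Across the 7 libraries C3 and Cfp had a Pearson r of 0.79 on log2 CPM, Cfb and C3ar1 0.70, and C3ar1 and C3 0.02. These values describe 7 libraries in 3 groups that share controls. Among 9491 genes with a mean of at least 5 CPM, those most like Cfb were Surf4 (r = 0.99), S100a8 (0.98) and Saa3 (0.98). Most like C3ar1 were Slfn5, Id2 and Akap8 (each 0.99). For Cfp they were P2rx4 (0.99), Cenpt (0.99) and Pla2g15 (0.98), for C3 they were Tcf25 (0.97), Glg1 (0.97) and Sowahc (0.95), and for C5ar1 Arhgap21 (0.96), Foxj2 (0.94) and Maml3 (0.93). An r above 0.9 was reached by 277 genes with C3ar1, 179 with Cfp, 152 with Cfb, 30 with C3 and 10 with C5ar1.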

How the data were processed

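Gene expression was measured by RNA sequencing of total RNA, with stranded total RNA libraries read as pairs, per the labels' protocols. The deposited table holds whole-number counts per gene symbol. The tools Trim Galore and Salmon (roles and versions not stated) and the genome build hg38 are named per the submitters' processing notes. That build is human and the symbols are mouse. Not given in the sources used here are the annotation used for mouse, the strand setting and any rounding of estimated counts, so reads of paralogs and overlapping genes may be divided by a model.

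The tests were run with edgeR 4.0.16 (R 4.3.3). After filterByExpr (13329 genes kept) and TMM scaling, 1 mean was fitted for each group over the 7 libraries, which left 4 residual degrees of freedom. Robust quasi-likelihood tests gave 4 comparisons, with Benjamini-Hochberg adjustment over all tested genes and a threshold of 0.05. A log2 fold change is of the unshrunk group means, and its SE and 95% interval follow from the F statistic. Each gene's spread was moderated with that of the other genes, so p-values and intervals rest on more than the 4 residual degrees of freedom. DESeq2 1.42.0, limma-voom (limma 3.58.1), other scalings and filters, a replicate block, each library left out, a GC and length correction, all hairpins as a single group and fits restricted to the groups compared were alternatives. Chi-square per degree of freedom between libraries of a group was 15.5 to 44.9, above sampling noise. Correlations used log2(CPM + 0.5).

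The members and lists were chosen with earlier results of these data known. Named genes were the 8 members, Dpep2, up to 4 other called genes per role list, otherwise its 2 highest tested genes, and the 3 genes most correlated with each member of at least 5 CPM. Itgam, Itgb2, C2 and Mertk were named after their values were seen. The NF-kB-like and ISRE-like letters were shortened, and the NF-kB-like motif given in a looser and a stricter form, after matches in these promoters had been seen; a longer NF-kB-like form searched first matched in more of them, and a longer ISRE-like form in none.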

Additional observations from a re-analysis of the deposited data

Results flagged for a closer look

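The hairpin groups lay on opposite sides of shNT for 2 of the 26 tested complement genes, both with shDpep2.968 below and shDpep2.759 above. That arrangement was found in 1.07% of all tested genes, and the share for the reverse arrangement is not given here. For C3 the log2 fold change of shDpep2.968 over shDpep2.759 was -0.65, with both shDpep2.968 libraries below and both shDpep2.759 libraries above every shNT library (edgeR adjusted p = 0.0652). For Cfp it was -0.57 with the same arrangement (edgeR adjusted p = 0.102). Neither difference passed the test. The shDpep2.759 libraries differed most of all replicate pairs (chi-square per degree of freedom 44.9). Without replicate 1 of that hairpin the log2 difference was -0.75 for C3 and -0.38 for Cfp. Without its replicate 2 it was -0.54 for C3 (edgeR adjusted p = 0.0748) and -0.73 for Cfp, which then passed (edgeR adjusted p = 0.00899).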

How the results depend on the processing

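C3ar1 and Dpep2 kept their averaged calls in all 17 alternatives and Cfb in 16. In the averaged comparison the number of called genes was 1012, and it was 1590 with no low-count filter, 2282 with the GC and length correction, 540 with all hairpin libraries as 1 group and 321 to 1468 with 1 library left out. The 4 called complement genes became 1 with all hairpin libraries as 1 group and 2 to 7 with 1 library left out (2 without shNT replicate 2 or 3, 7 without shDpep2.759 replicate 1, of which 6 higher and 1 lower). For shDpep2.968 the 700 called genes became 1443 with no low-count filter, 1854 with the correction, 1350 with the compared groups only and 69 to 1309 with 1 library left out. Its 2 complement calls, both higher, became 5 with no low-count filter (4 higher, 1 lower), with DESeq2 or with the compared groups only (each 3 higher, 2 lower), 7 with the correction (4 higher, 3 lower) and 1 to 5 with 1 library left out (up to 2 lower). For shDpep2.759 the 630 called genes became 1131 with no low-count filter, 1808 with the correction and 253 to 768 with 1 library left out. Its 2 complement calls, both higher, became 8 with the correction (7 higher, 1 lower) and 1 to 4 with 1 library left out (0 lower). Between the hairpins the 112 called genes became 669 with no low-count filter, 378 with DESeq2, 54 with limma-voom, 63 without robust estimation, 592 with the correction, 61 with the compared groups only and 6 to 1070 with 1 library left out. The 0 complement calls there became 5 with no low-count filter (1 higher, 4 lower), 6 with DESeq2 (1 higher, 5 lower) or the correction (2 higher, 4 lower) and 0 to 5 with 1 library left out (5 without shDpep2.759 replicate 2, 1 higher and 4 lower). The cause was not tested. With the correction C3 and Cfp passed for shDpep2.759 (edgeR adjusted p = 0.0383 and 0.0295, ranges over the alternatives 0.0383 to 0.568 and 0.0295 to 0.723).

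Same-numbered libraries did not deviate together (correlations -0.29 to 0.10), so the numbers were not taken as pairs. In the replicate block shNT replicate 3 has a term of its own. With it the called genes were 404 in the averaged comparison, 308 for shDpep2.968, 312 for shDpep2.759 and 130 between the hairpins. The complement calls with the block were 3 in the averaged comparison, all higher, and 1 for each hairpin alone. Between the hairpins the block gave 1 complement call, which was Cfb (edgeR adjusted p = 0.0285). C3ar1 lost its single-hairpin calls with the block (edgeR adjusted p = 0.0524 for shDpep2.968 and 0.0531 for shDpep2.759).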

Other observations

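Of the complement genes too low to be tested, Hc, which encodes the precursor of the C5ar1 ligand, had 0 and 0 counts (shDpep2.968), 3 and 7 (shDpep2.759) and 0, 1 and 1 (shNT). C8g, a chain of a terminal component, had 2 and 2 counts (shDpep2.968), 9 and 9 (shDpep2.759) and 5, 14 and 5 (shNT). The lectin pathway genes Mbl1, Mbl2 and Fcnb and the alternative pathway protease gene Cfd had 0 counts in all 7 libraries. These genes were chosen after their values were seen.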
